A study of Homo sapiens with 3 samples.

Results

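The inhibitors of cyclin-dependent kinases (CDKs) were followed in PANC-1 cells exposed to cantharidin or okadaic acid. They are 7 genes, the 3 CIP/KIP genes CDKN1A, CDKN1B and CDKN1C and the 4 INK4 genes CDKN2A, CDKN2B, CDKN2C and CDKN2D, out of 19695 genes that the array probes could be matched to. Members were found by matching the transcript accession of each probe to RefSeq gene symbols, which gave 9 probes out of 34041, with 2 probes each for CDKN1B and CDKN2A and 1 for each other member. PANC-1 is an established human pancreatic cancer line that is catalogued as having lost both copies of CDKN2A. It was grown in DMEM with fetal calf serum and antibiotics. The study compared control cells, for which the label names no agent or vehicle, with cells given 20 µM cantharidin and with cells given 20 µM okadaic acid, each for 24 h, and asked about cell cycle arrest, CDK1 and p21. The okadaic acid dose is that of the sample label, whereas the treatment protocol writes the dose before cantharidin alone. Both agents inhibit protein phosphatase 2A (PP2A), which removes phosphate groups from many proteins. Each condition had 1 array, so nothing below could be checked against replicates or tested across arrays.

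CDKs drive the cell cycle once a cyclin is bound to them. The CIP/KIP proteins p21 (CDKN1A), p27 (CDKN1B) and p57 (CDKN1C) bind cyclin and kinase together and block mainly the cyclin E and cyclin A complexes of CDK2, whereas the INK4 proteins p16 (CDKN2A), p15 (CDKN2B), p18 (CDKN2C) and p19 (CDKN2D) bind CDK4 and CDK6 alone and keep cyclin D away. Kept active, CDKs phosphorylate the retinoblastoma protein and release E2F factors, which switch on genes for DNA replication. In pancreatic cancer the CDKN2A locus is among the genes most often lost, and p21 is the inhibitor best known to be activated by Sp1 at its promoter.

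The series title names Sp1, a zinc finger factor that binds GC boxes, together with p21. The promoters of 3 members are therefore shown, as examples of different patterns against control: CDKN1A was higher under both agents, CDKN1B lower under both, and CDKN2D lower under cantharidin but higher under okadaic acid. Each sequence is the 250 bases before the transcript start in RefSeq (GRCh38.p14), read 5′ to 3′ on the gene's own strand, and capitals mark every GC box, GGGCGG or its reverse complement CCGCCC. The CDKN1A window is chr6:36678464-36678713 (plus strand), that of CDKN1B is chr12:12717118-12717367 (plus strand) and that of CDKN2D is chr19:10568980-10569229 (minus strand).
CDKN1A: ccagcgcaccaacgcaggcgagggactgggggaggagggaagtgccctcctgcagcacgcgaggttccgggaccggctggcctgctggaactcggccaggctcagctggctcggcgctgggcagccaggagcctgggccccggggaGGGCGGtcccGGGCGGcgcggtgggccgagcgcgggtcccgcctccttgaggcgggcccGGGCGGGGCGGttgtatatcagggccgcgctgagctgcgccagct
CDKN1B: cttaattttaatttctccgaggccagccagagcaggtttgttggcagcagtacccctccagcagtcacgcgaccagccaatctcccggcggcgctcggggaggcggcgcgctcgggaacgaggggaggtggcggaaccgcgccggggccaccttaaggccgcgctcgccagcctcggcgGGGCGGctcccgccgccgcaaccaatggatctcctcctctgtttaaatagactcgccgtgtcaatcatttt
CDKN2D: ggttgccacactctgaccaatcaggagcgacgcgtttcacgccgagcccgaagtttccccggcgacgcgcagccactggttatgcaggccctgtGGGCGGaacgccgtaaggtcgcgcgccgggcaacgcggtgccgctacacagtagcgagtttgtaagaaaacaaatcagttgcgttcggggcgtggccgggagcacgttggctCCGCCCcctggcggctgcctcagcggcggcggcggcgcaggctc
The CDKN1A window held 4 GC boxes, the last pair of which overlap by 1 base, and its base composition was 76.4% G and C. At least 4 boxes were found in 7.63% of the 35116 promoters of the same length. CDKN2D held 2 boxes, as 24.3% of promoters do or exceed, and CDKN1B held 1, a number reached by 42.6%. The box nearest the start began at position -40 in CDKN1A, -71 in CDKN1B and -44 in CDKN2D. Among the other members with an entry, the 2 CDKN2A starts held 0 and 1 boxes, CDKN2B held 2, and the 3 CDKN2C starts held 0, 5 and 1. The CDKN2A starts were not assigned to particular transcripts. CDKN1C had no entry. A match of these letters is a description of the sequence and was not tested as a binding site.

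Signals are processed spot intensities. A difference is the log2 signal of one array minus that of another, with the 75th percentile of its own array taken off first (784 intensity units in control cells, 713 with cantharidin and 936 with okadaic acid). Comparison required a probe that either array of the pair read well above background, and a probe is called higher or lower at 1.5-fold. The dimmest signal counted as well above background was 35.0 units in control cells, 21.9 with cantharidin and 58.0 with okadaic acid, and 7 of the 9 member probes exceeded it on all 3 arrays. All arrays lay on 1 slide, and position on the slide cannot be told apart from the condition. The keratin genes KRT7, KRT8, KRT18 and KRT19 and EPCAM were well above background on all arrays, as was vimentin (VIM). The E-cadherin gene CDH1 was so only in control cells, at 167 units, and the fibronectin gene FN1 on no array. Of the blood and endothelial markers, PTPRC, CD3E, CD14, CDH5 and VWF also passed this flag on all arrays, and PECAM1 passed with 1 of its 3 probes on the control array alone, so the flag by itself does not mark a gene of the cell's own type. CD14 read 2535 units in control cells, 1838 under cantharidin and 11044 under okadaic acid. PTPRC stayed within 1.5-fold on its brightest probe, while the highest log2 difference among its 4 probes was 2.92 under cantharidin and 2.08 under okadaic acid. The part of these markers in the results below was not tested.

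The CIP/KIP genes differed from control in 3 different ways. CDKN1A, which encodes p21, was higher under both agents, CDKN1B was lower under both on each of its probes, and CDKN1C moved in opposite directions. Because whole cell populations were measured, fewer cells with a transcript and less transcript per cell cannot be told apart. The ± values given for single spots are the error that the scanner software assigned to that spot. They cover the reading of the spot and not the spread between cultures.

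**Figure D1:**
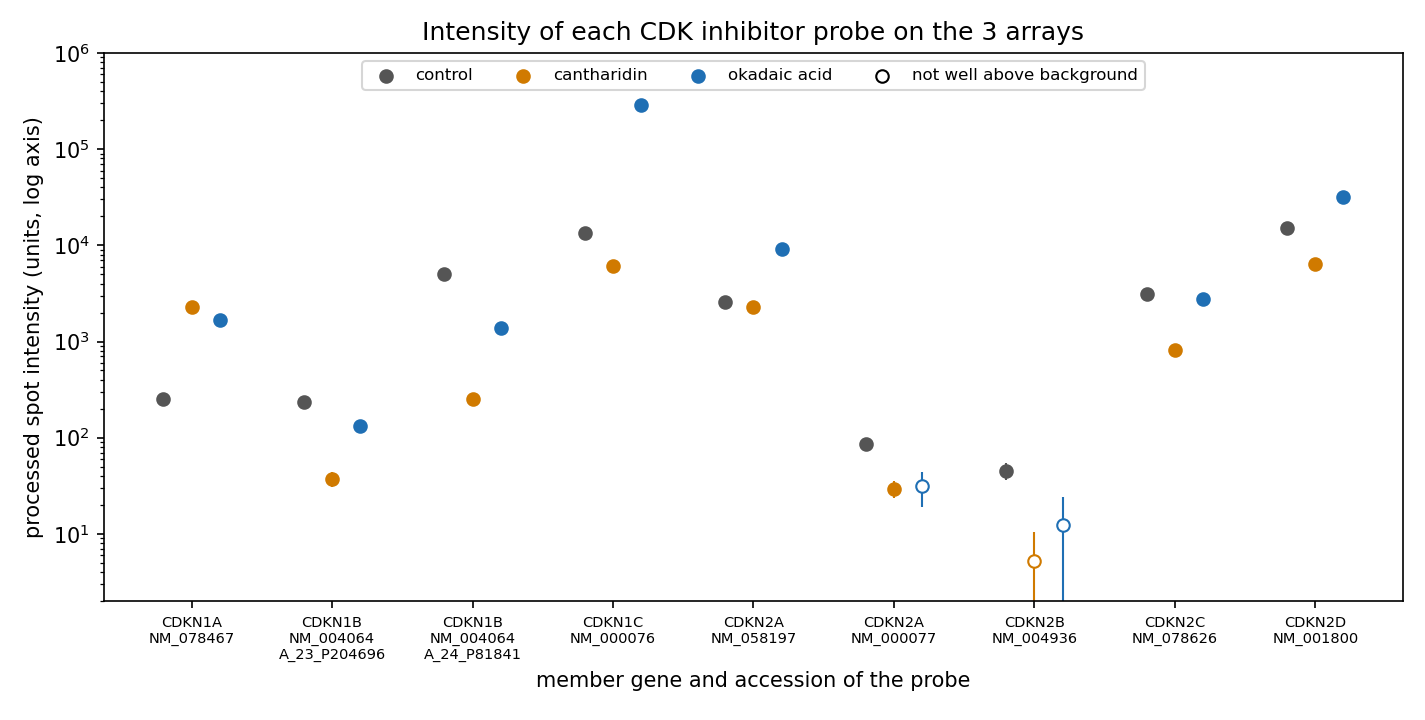
Processed intensity (log axis) of the 9 CDK inhibitor probes in control cells and under each agent, with 1 point an array, open where the probe was not well above background, and bars for the error of the spot (for the CDKN1B probe A_24_P81841, the SD of its spots), which lie within most points. CDKN1C under okadaic acid stands highest at 285283 units, and the open points of CDKN2B lie at 5.27 and 12.2 units, with lower bars that run off the axis.

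The CDKN1A probe A_24_P89457 (NM_078467) read 255 ± 26.5 units in control cells, 2302 ± 230 under cantharidin and 1691 ± 169 under okadaic acid. Control was lowest and cantharidin highest. The log2 difference from control was 3.31 for cantharidin, a 9.93-fold higher signal, and 2.47 for okadaic acid, or 5.55-fold. These placed the probe 709th from the top of the 26769 probes compared for cantharidin and 1118th of 25714 for okadaic acid. Set directly against cantharidin, okadaic acid cells had a 1.79-fold lower CDKN1A signal (log2 difference -0.84, against a spot error of 0.20). CDKN1A was the only member probe past 1.5-fold in that direction between the agents, and with no scaling of the arrays the difference was -0.45, short of 1.5-fold.

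CDKN1B encodes p27, the inhibitor that holds CDK2 in resting cells and is cleared by the ubiquitin ligase SKP2 when cells enter the cycle. Its brighter probe, A_24_P81841 (NM_004064), was printed in 10 spots on each array, so it has a measured spread within the array. The mean was 5003 ± 168 units in control cells (SD, n = 9 spots), 252 ± 14.5 under cantharidin (SD, n = 10 spots) and 1374 ± 23.0 under okadaic acid (SD, n = 9 spots). Before scaling, the spots ran from 4875 to 5414 units in control, 226 to 276 under cantharidin and 1344 to 1414 under okadaic acid. Spots share 1 RNA extract and are not replicates of the condition. The signal was 18.0-fold lower under cantharidin (log2 -4.17, spot error 0.03) and 4.35-fold lower under okadaic acid (log2 -2.12, spot error 0.02). That made it the 151st lowest of all probes compared under cantharidin and the 1336th lowest under okadaic acid. Between the agents, okadaic acid was 4.15-fold above cantharidin.

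**Figure D2:**
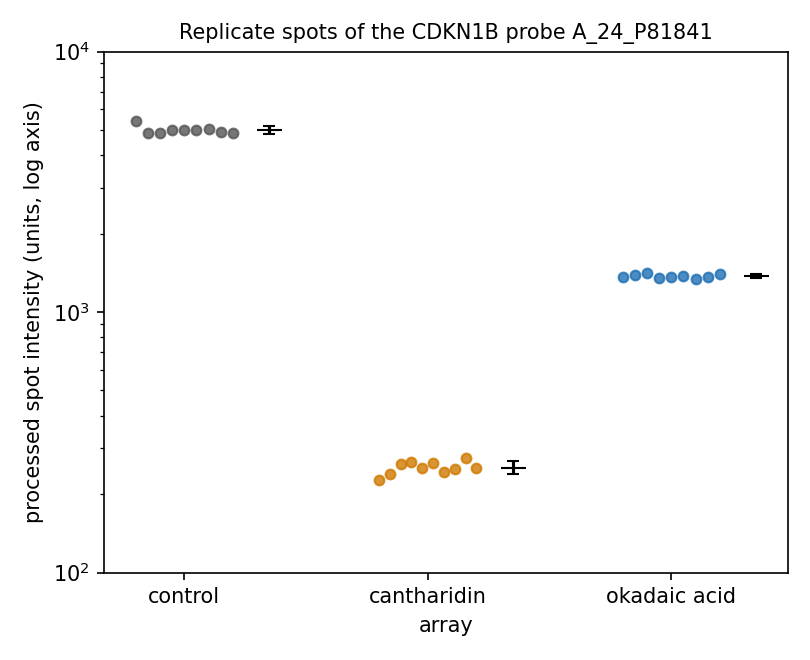
Processed intensity (log axis) of every used spot of the CDKN1B probe A_24_P81841 on the 3 arrays, with the mean and SD over spots drawn as a bar beside them. The 9 control spots lie between 4875 and 5414 units, the 9 okadaic acid spots between 1344 and 1414 and the 10 cantharidin spots between 226 and 276.

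The other CDKN1B probe, A_23_P204696, names the same accession and was dimmer on every array. It read 235 ± 24.6 units in control cells, 36.9 ± 6.56 under cantharidin and 131 ± 17.7 under okadaic acid. The order of the arrays was the same, with smaller differences: 5.79-fold lower under cantharidin (log2 -2.53) and 2.15-fold lower under okadaic acid (log2 -1.10). The 2 probes thus differed by 1.64 log2 units for cantharidin and by 1.02 for okadaic acid in how far the signal lay below control. Normexp, an alternative background correction, was run with 50 units added to every signal, which by construction shrinks the differences of dim probes. With the normexp correction, the cantharidin difference of the dimmer probe became -1.35, and its okadaic acid over cantharidin difference of 1.43 became 0.55.

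CDKN1C encodes p57, an imprinted inhibitor of growth that is mostly expressed in differentiating and resting tissue. Probe A_23_P428129 (NM_000076) read 13556 ± 1356 units in control cells, 6046 ± 605 under cantharidin and 285283 ± 28528 under okadaic acid. Cantharidin was 2.04-fold below control (log2 -1.03, spot error 0.20), whereas okadaic acid was 17.6-fold above it (log2 4.14, spot error 0.20). Between the agents the gap was 35.9-fold, the 21st largest excess of okadaic acid over cantharidin among 25771 probes. By its difference under okadaic acid, CDKN1C was 198th from the top of all probes. Among the 14220 genes whose brightest probe was well above background on all 3 arrays, 79, CDKN1C included, had an okadaic acid difference at least as large. Of those, 3 were below control under cantharidin, and 2 of them by at least 1.5-fold. This count leaves out genes that were dim on any array, so also those that were dim under cantharidin.

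Among the INK4 genes, some probes had bright signals and others lay near background. CDKN2C and CDKN2D were lower under cantharidin, and under okadaic acid CDKN2D was higher while CDKN2C stayed within 1.5-fold. The 2 CDKN2A probes, which name different transcripts, did not move together, and NM_000077 was dim under okadaic acid. What either probe detects in a line catalogued without CDKN2A was not tested. CDKN2B was near background throughout.

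CDKN2D encodes p19, the INK4 protein whose level normally rises in S phase. Probe A_23_P89941 (NM_001800) read 15148 ± 1515 units in control cells, 6461 ± 646 under cantharidin and 32167 ± 3217 under okadaic acid. The values lay on both sides of control: 2.13-fold lower with cantharidin (log2 -1.09) and 1.78-fold higher with okadaic acid (log2 0.83). Okadaic acid was 3.79-fold above cantharidin (log2 1.92).

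CDKN2C encodes p18. Probe A_33_P3292540 (NM_078626) read 3136 ± 314 units in control cells, 814 ± 81.7 under cantharidin and 2741 ± 274 under okadaic acid. Cantharidin was 3.50-fold below control (log2 -1.81). Okadaic acid differed from control by a log2 value of -0.45, or 1.37-fold, which did not pass 1.5-fold, and was 2.56-fold above cantharidin (log2 1.36).

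The CDKN2A locus gives several transcripts, for p16 from one promoter and for the unrelated protein ARF from another. Probe A_23_P43490 names NM_058197, a splice form of the p16 transcript also called p12. It read 2599 ± 260 units in control cells, 2280 ± 228 under cantharidin and 9224 ± 922 under okadaic acid. Control and cantharidin differed by a log2 value of -0.05, less than the spot error of 0.20, and okadaic acid was 2.97-fold above control (log2 1.57). Probe A_33_P3411628 names NM_000077, the p16 transcript, and read 86.6 ± 11.3 units in control cells, 29.6 ± 6.13 under cantharidin and 31.6 ± 12.5 under okadaic acid. Only the first 2 were well above background. The signal was 2.66-fold lower under cantharidin (log2 -1.41) and at least 1.78-fold lower with okadaic acid. Normexp correction, with its 50 added units, shrank the differences of this probe to -0.35 and -0.45, both short of 1.5-fold. The addition shrinks differences at such dim signals by construction, so these values are no test of the calls. What gives the bright signal of NM_058197, or the dim one of NM_000077, in a line catalogued without CDKN2A was not tested. No member probe names an ARF accession, and the ARF transcript was not analysed here.

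CDKN2B encodes p15, a target of TGF-β signalling that lies beside CDKN2A. Probe A_23_P216812 (NM_004936) read 45.4 ± 8.73 units in control cells, 5.27 ± 5.25 under cantharidin and 12.2 ± 12.2 under okadaic acid. It was well above background on the control array alone, and there only slightly above the lowest such signal of 35.0. The signal was at least 1.88-fold lower under cantharidin. With the normexp correction, whose 50 added units exceed this signal, the log2 difference was -0.43 and the call ended. No fold can be given for okadaic acid, since the control signal lay below what the okadaic acid array could measure, although the measured log2 difference of -2.15 places the probe among those counted as lower.

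Counted together, under cantharidin 1 of the 9 member probes was higher, 7 were lower and 1 (CDKN2A NM_058197) was not past 1.5-fold, where 26.4% of all probes compared were higher and 33.0% lower. The median log2 difference of the members was -1.41 against -0.17 over all probes compared. Under okadaic acid 4 probes were higher (CDKN1A, CDKN1C, CDKN2A NM_058197 and CDKN2D), against 26.5% of all probes, and 4 were lower (both CDKN1B probes, CDKN2A NM_000077 and CDKN2B), against 27.7%. The members' median was -0.45 and that of all probes -0.01. With the normexp correction, 5 probes were lower under cantharidin and 2 under okadaic acid. The even split under okadaic acid counts CDKN1B on 2 probes and includes CDKN2B, for which no fold can be given. It is therefore not a result about the genes. Over the whole array 6812 probes were higher and 7123 lower under okadaic acid. With no scaling the array split was 9005 and 5464, and the median of all probes moved to 0.25.

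**Figure D3:**
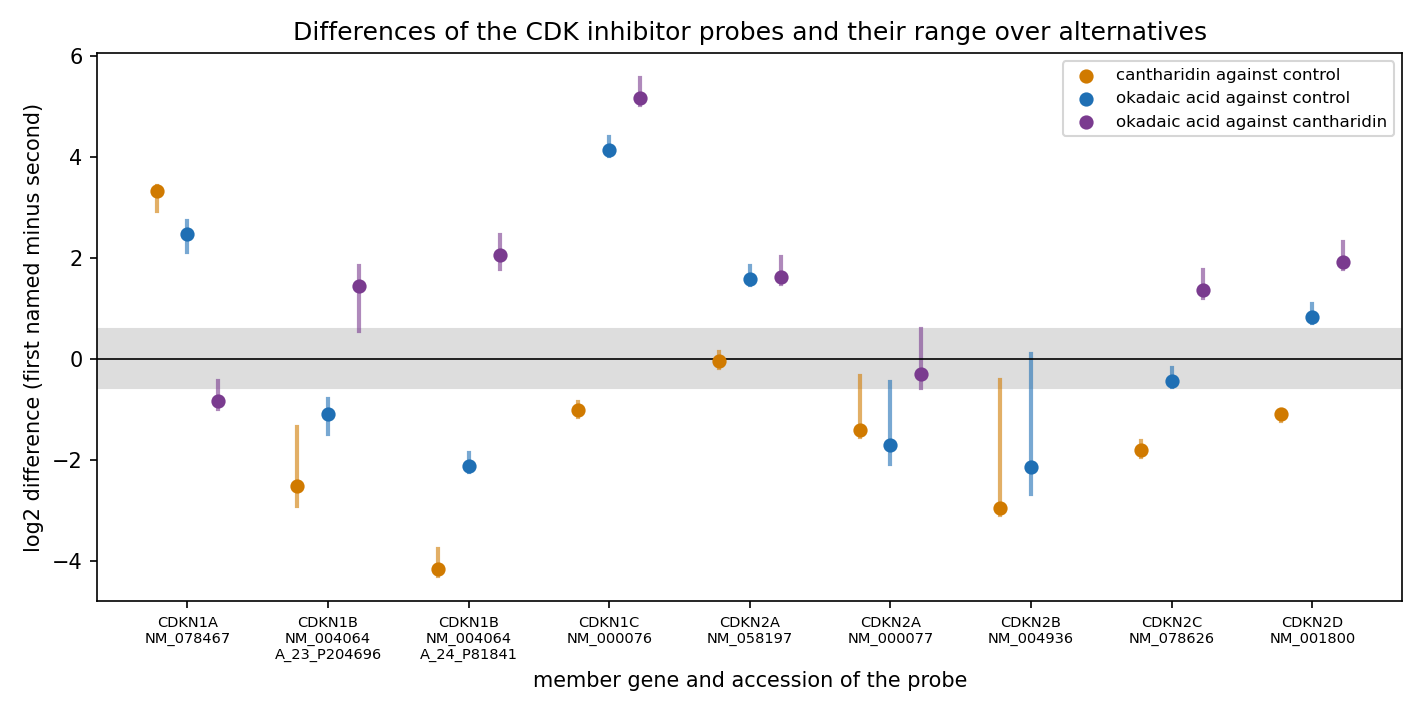
Log2 differences of the 9 CDK inhibitor probes in the 3 comparisons (points) with the lowest and highest value over the alternative settings (lines), and the zone within 1.5-fold shaded. In both comparisons with control, the CDKN1A, CDKN1B, CDKN1C and CDKN2D lines stay outside the zone, while the dim CDKN2A NM_000077 and CDKN2B lines reach into it.

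Set against cantharidin directly, okadaic acid gave higher signals for 6 of the 8 member probes that could be compared, where 28.0% of all probes were higher. These were both CDKN1B probes, CDKN1C, CDKN2A NM_058197, CDKN2C and CDKN2D. CDKN1A alone was lower, against 22.5% of all probes, and CDKN2A NM_000077 was counted as not past 1.5-fold, although no fold can be given for it, since the cantharidin signal lay below what the okadaic acid array could measure. Its measured difference of -0.30 ranged from -0.59 to 0.58 over the alternatives. By gene the shares were 29.5% higher and 22.3% lower. The median was 1.53 for the members and 0.11 for all probes. CDKN2B was not well above background on either treated array. Over the whole array this comparison leaned on the scaling, with 7211 probes higher and 5805 lower as scaled here, 11925 and 3625 with no scaling, and 5812 and 7021 with scaling to the median. The median of all probes was 0.51 and -0.04 in these. The member differences called higher ran from 1.36 to 5.17 as scaled here. That of the dimmer CDKN1B probe, 1.43, became 0.55 with the normexp correction. Scaling to a percentile or to the median moves every difference of this comparison by the same amount. All 6 probes called higher stayed so under every scaling tried. The cause of the shift between the arrays was not tested.

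Both agents were set against 1 control array, so the differences share its error and are given side by side. Of the 9 member probes, 5 passed 1.5-fold in the same direction under both agents: CDKN1A higher, and CDKN1B (2 probes), CDKN2A NM_000077 and CDKN2B lower. This count takes CDKN2B at its measured signal, and its okadaic acid difference was 0.10 once a dim signal was raised to the floor of its array. Over the 25469 probes compared under both, 16.0% were higher and 20.0% lower under both. CDKN1C and CDKN2D passed in opposite directions, as 3.26% of all probes did and as 1.98% did with cantharidin lower and okadaic acid higher. The converse pattern, held by 1.28% of probes, was shown by no member. Among the 504 probes lower under cantharidin and higher under okadaic acid, CDKN1C ranked 11th and CDKN2D 311th by the distance between the agents.

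**Figure D4:**
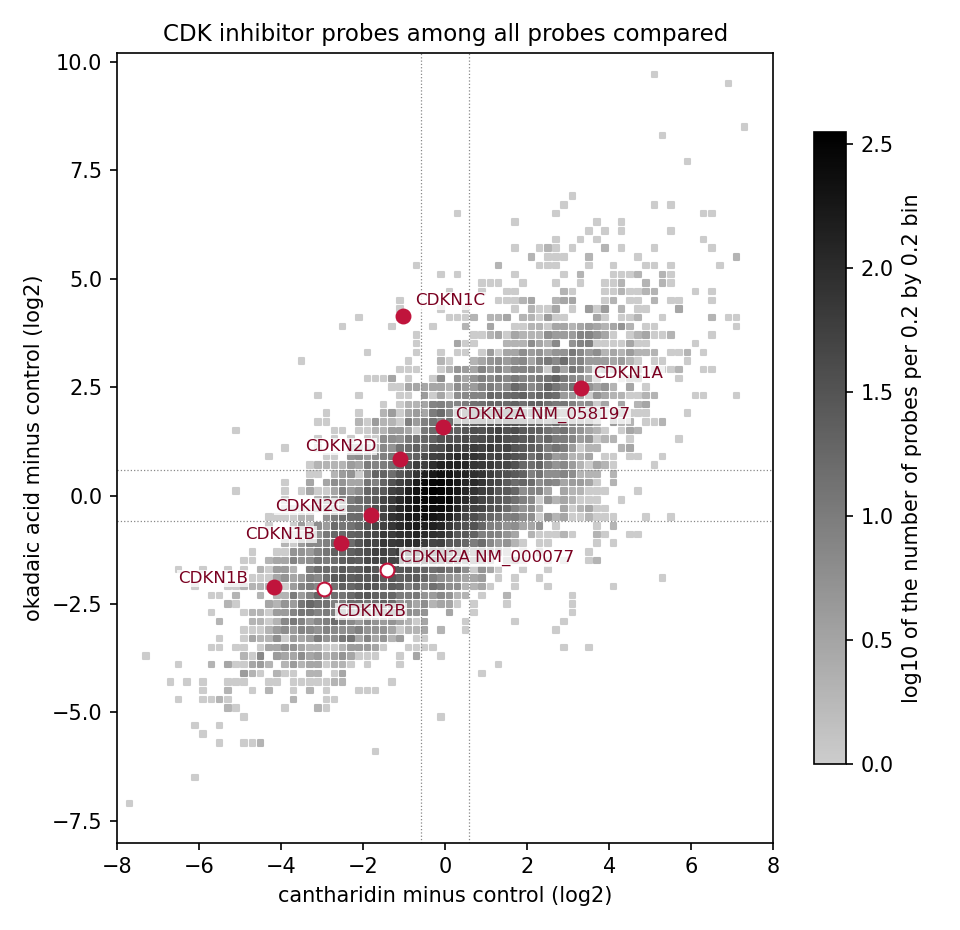
Log2 difference from control under cantharidin (horizontal) and okadaic acid (vertical) for the 25469 probes compared under both, shaded by the number of probes in a bin, with the 9 CDK inhibitor probes as red points, open where dim on at least 1 array, and dotted lines at 1.5-fold. Both axes use the same control array. CDKN1C (-1.03, 4.14) and CDKN2D (-1.09, 0.83) are the members in the upper left field, and CDKN1A (3.31, 2.47) is the one in the upper right.

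The genes whose pair of differences lay nearest to a member's were searched among 14220 genes well above background on all 3 arrays, with likeness taken as the distance over the 2 log2 differences. Nearest to CDKN1A were CEROX1, GZF1 and PELI1, at distances of 0.05 to 0.10 log2 units. CDKN1B (its brighter probe) was nearest to ASB9, PTPRJ and RNFT2, at 0.19 to 0.22. For CDKN1C the nearest gene was CD69, an early activation marker of lymphocytes, with log2 differences of -1.05 and 4.28 at a distance of 0.14, and then CHST11 and NUAK2 at 0.61 and 0.62. CDKN2A NM_058197 had SPINK7, DYNLT2 and INHBA within 0.03, and CDKN2C had IFNGR2, NFIA and PAXX within 0.05. CDKN2D was nearest to GLRX5, MCMBP and PDCD2L, at 0.08 to 0.10. The second nearest gene of CDKN1C lay farther from it than that of any other member searched. A distance over 2 values that share a control says nothing of shared function.

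The partners and regulators of the inhibitors were taken from 5 lists, with the brightest probe for each gene. Values of list genes are log2 differences from control, given for cantharidin first and okadaic acid next. Of the 12 CDKs and cyclins with a named probe, 1 was higher and 10 were lower under cantharidin, where 27.5% of all genes were higher and 34.1% lower. Under okadaic acid 2 were higher and 6 lower, against 28.1% and 28.8%. The median log2 difference was -2.14 and -0.63, beside -0.16 and 0.01 for all genes. CDK2, the main target of the CIP/KIP proteins, differed by -2.68 under cantharidin and -2.57 under okadaic acid. CDK1, the mitotic kinase, was lower still, at -5.93 and -4.67, and so were the cyclins CCNA2 (-4.49 and -3.87) and CCNB2 (-3.11 and -2.64).

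The kinases that INK4 proteins bind were lower as well under cantharidin. CDK4 differed by -1.92 under cantharidin and -1.41 under okadaic acid. CDK6 was not well above background under cantharidin, at least 9.62-fold below control, and differed by -0.45 under okadaic acid. Among their cyclins, CCND1 differed by -1.06 and -0.42, CCND2 by 3.39 and 0.33, and CCND3 by -1.79 and 0.64. CCND2 was the only member of this list that was higher under cantharidin. The CDK2 partner CCNE1 differed by -0.42 under cantharidin and 1.33 under okadaic acid, and CCNE2 by -0.64 and -0.32. A second CCNE2 probe differed by 1.45 under okadaic acid, measured against a dim control signal.

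Downstream of the kinases stand the pocket proteins and E2F factors, of which 13 were measured. Under cantharidin 1 was higher and 9 were lower (median -0.87), and under okadaic acid 1 was higher and 5 were lower (median -0.39). Of all genes, 27.5% were higher and 34.1% lower under cantharidin, and 28.1% and 28.8% under okadaic acid. Their medians were -0.16 and 0.01. RB1 itself stayed within 1.5-fold, at -0.47 and 0.11. RBL2, the pocket protein of resting cells, differed by -2.19 and -3.05. E2F2 was lower under both agents (-3.78 and -2.60), E2F3 (-1.52 and -0.55) under cantharidin and TFDP1 (-1.38 and -1.14) under both. E2F7, an E2F repressor, was the higher one in each, at 1.79 and 1.08. Its other probe, dim on the okadaic acid array, differed by -0.29 under that agent.

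The 14 ubiquitin ligase genes that act on p21, p27 and p57 protein gave 1 higher and 8 lower under cantharidin (median -0.74), and 1 higher and 6 lower under okadaic acid (median -0.43). For all genes the shares were 27.5% higher and 34.1% lower under cantharidin and 28.1% and 28.8% under okadaic acid. The medians of all genes were -0.16 and 0.01. SKP2, which marks p27 for destruction, differed by -3.89 and -2.04, and its cofactor CKS1B by -3.40 and -2.47. CDC20, an activator of the ligase that acts in mitosis, differed by -1.94 and -0.79, and UBAC1, a partner in the ligase that clears p27 in early G1, by -1.17 and -1.61. PCNA, through which p21 is handed to a ligase, differed by -1.70 under cantharidin and 0.57 under okadaic acid.

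**Figure D5:**
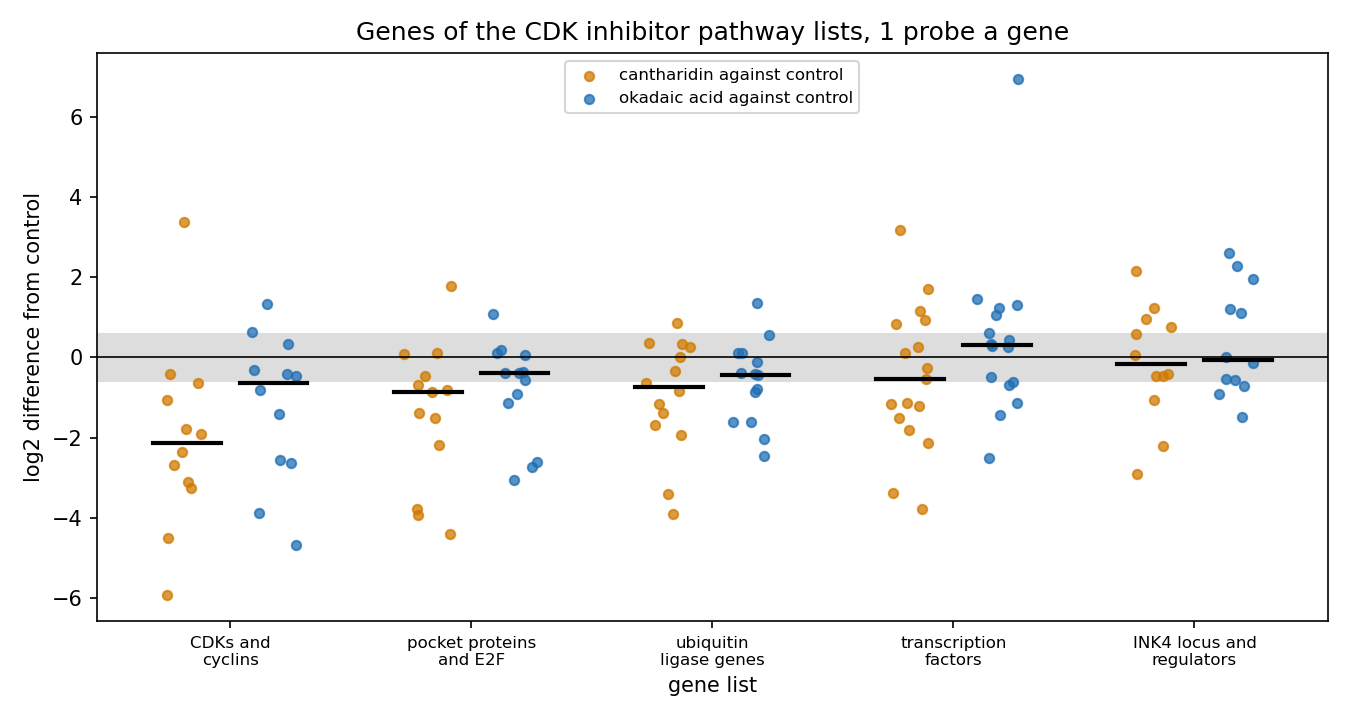
Log2 difference from control of each gene in the 5 lists around the CDK inhibitors, 1 probe a gene, under cantharidin and okadaic acid, with black bars at the list medians and the zone within 1.5-fold shaded. The CDK and cyclin medians are -2.14 and -0.63, those of the transcription factors -0.54 and 0.31, and CEBPA is the point at 6.95.

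The transcription factors known to act on the CIP/KIP genes were found on both sides of control. Of 17 compared under cantharidin, 5 were higher and 8 lower (median -0.54), and of 16 under okadaic acid, 6 were higher and 5 lower (median 0.31). The shares of all genes were 27.5% higher and 34.1% lower under cantharidin and 28.1% and 28.8% under okadaic acid, with medians of -0.16 and 0.01. MYC, which represses CDKN1A, differed by -3.77 and -2.51. CEBPA, a factor that raises p21 in differentiating cells, differed by 3.19 and 6.95. SMAD3 and SMAD2, which carry TGF-β signals to CDKN1A and CDKN2B, differed by -3.38 and -1.44 and by -1.80 and -1.14. TFAP2A, which activates CDKN1A, differed by -2.13 and -0.62. The transcript of SP1, named here outside the rule for naming genes because the title names it, stayed within 1.5-fold at 0.26 and 0.33.

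Around the INK4 locus, 12 neighbours and regulators were compared. Under cantharidin 4 were higher and 3 lower (median -0.17), and under okadaic acid 5 were higher and 3 lower (median -0.07). Over all genes the medians were -0.16 and 0.01, with 27.5% higher and 34.1% lower under cantharidin and 28.1% and 28.8% under okadaic acid. MTAP, next to CDKN2A, differed by -1.06 and -0.15 on its brightest probe, while its other probes were dim on all arrays. On none of the arrays did the antisense RNA CDKN2B-AS1 rise well above background. The Polycomb genes, whose complexes silence this locus, were mixed. EZH2 was higher under both agents (2.16 and 2.29) and so was RING1 (1.23 and 2.61), whereas CBX8 differed by -2.21 under cantharidin and 1.10 under okadaic acid, the directions that CDKN1C and CDKN2D took. ID1, a repressor of CDKN2A, was lower under both (-2.90 and -1.49), and the neighbour DMRTA1 was higher under both (0.96 and 1.97).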

How the data were processed

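Total RNA of PANC-1 cells was hybridised to 3 one-colour Agilent arrays, 1 for each condition. The authors deposited scanner output from Feature Extraction 11.0.1.1 with hg19 probe annotation, in which each spot has a background-subtracted intensity that was not scaled between arrays. A table of normalized log2 values was deposited too, made in a way not given in the sources used here, which served as an alternative, and 0 of its columns lacked a sample. Spots flagged as outliers were dropped, log2 intensity was averaged per probe and each array's 75th percentile was subtracted. Transcript accessions were matched without version to RefSeq symbols, for 25701 of 34041 probes. Probes that either array of a pair read well above background were called at 1.5-fold, the study's threshold. A dim signal was replaced by its array's floor for an "at least" fold. The text names every member probe and, from each list, the listed direct partners and at most 5 genes well above background on all arrays with the largest difference under either agent. CCNA1 and EED had no named probe, and some listed genes, markers and a list are not reported here. Members and lists were chosen with earlier results of these data known. Alternatives were normexp correction, other scalings, filters, a 2-fold threshold, centring within 16 blocks, and the median over a gene's probes. Normexp used limma 3.58.1 in R 4.3.3 on median spot and background intensity, with an offset of 50 units added to every signal. The calling code was run on arrays simulated from the control array. Changes were planted only in probes well above background, so the run says nothing of dim probes or unequal floors. Python 3.11.15 with numpy 2.4.6 and pandas 2.3.3 was used. Precision is limited by having 3 arrays.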

Additional observations from a re-analysis of the deposited data

How the results depend on the processing

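No paired analysis was possible because each condition had 1 array. Of the counts of members and of list genes past the threshold, 130 recomputed values stayed within 1.5 times the reported count and 8 did not. The 4 member probes lower under okadaic acid became 2 with the normexp correction and 2 with the filter for signal on all 3 arrays, which by its construction leaves out CDKN2A NM_000077 and CDKN2B. The 1 member probe lower under okadaic acid than under cantharidin became 0 with no scaling, 0 at 2-fold and 2 with the deposited normalized table. In that comparison 9 list genes were lower, which became 5 at 2-fold and 5 with no scaling. The 12 list genes higher under cantharidin than in control became 7 at 2-fold, as fewer differences reach a stricter threshold. The CDKN2B difference of -2.15 under okadaic acid became 0.10 with dim signals at the array floor, since that floor exceeds the control signal. No other member difference past 1.5-fold changed sign. Without scaling, every difference of a comparison moves by the same amount. Normexp adds 50 units to every signal, which by construction shrinks the differences of dim probes. How much of the normexp changes comes from the added units was not tested, nor was the cause under the deposited table. These values are limited by a single array per condition and, for CDKN2A NM_000077, CDKN2B and the dimmer CDKN1B probe, a signal near background. The floor of 58.0 units under okadaic acid against 21.9 under cantharidin makes a low signal harder to measure on the former array.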
